A study of Homo sapiens with 18 samples.

Results

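The BCL2 family decides whether a cell keeps the outer membrane of its mitochondria intact. Prosurvival members such as BCL2 and MCL1 bind and hold back the pore-forming effectors BAX and BAK1. The BH3-only members, here BCL2L11, BID, BAD, BBC3, PMAIP1 and BIK, respond to stress by binding the prosurvival proteins or the effectors. Once BAX or BAK1 permeabilises the membrane, cytochrome c is released and caspases are activated. These 10 genes were taken by symbol from a table of 55766 gene symbols. All 10 were found, and 9 of them had enough counts to be tested.

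The cells were K562, an established human line from a chronic myeloid leukaemia, carrying a transgene that joins B2M to the red fluorescent protein tdTomato. All groups carried that transgene. Untreated cells were compared with cells in which B2M had been silenced through TALE proteins and with cells in which it had been silenced through dCas9. Both proteins can be programmed to bind a chosen DNA sequence, and here they brought DNA methylation to the promoter of B2M. Silenced cells received a mix of 3 plasmids, each for a different designed repressor, and the dCas9 cells also received a plasmid for the guide RNA. The labels give neither the time from treatment to collection nor whether the replicates came from separate cultures, so p-values measure only the spread between these libraries. Each of the 3 groups had 3 RNA-seq libraries and 3 MeDIP-seq libraries. MeDIP-seq sequences DNA pulled down by an antibody against methylated cytosine.

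RNA libraries held 8460076 to 12050554 counts and MeDIP libraries 2529729 to 4492751 counts. B2M had 79, 48 and 54 RNA counts in the untreated libraries, 3, 7 and 4 in the TALE libraries and 2, 3 and 3 in the dCas9 libraries, so the groups followed their labels. All 11 erythroid and megakaryocytic markers of K562 were present, with GATA1 at 82.0 to 109 CPM, a unit that scales counts to a common library size. B2M_tomato, named for the transgene, averaged 379 CPM in untreated, 15.1 in TALE and 16.3 in dCas9 libraries, so it followed the labels too. Across 11366 genes, the deviation of a library from the mean of all libraries was correlated with exonic length at a Spearman rho of -0.37 in TALE replicate 3 and -0.31 in dCas9 replicate 1. The rho was 0.26 in TALE replicate 1 and -0.05 to 0.11 in the other 6 libraries. Genes of the mitochondrial genome took 4.04% to 14.0% of the counts.

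None of the 9 tested members was called higher or lower in any comparison, at an adjusted p under 0.05 over all 13786 genes tested with edgeR. That threshold called 3 genes, or 0.0218%, between TALE and untreated cells and 4 genes, or 0.029%, between dCas9 and untreated cells. It called 0 genes, or 0%, between TALE and dCas9 cells. It called 5, or 0.0363%, between the mean of both silenced groups and untreated cells. At an unadjusted p under 0.05 these comparisons held 986, 818, 880 and 876 genes, 7.15%, 5.93%, 6.38% and 6.35% of those tested. BID, between TALE and untreated cells, was the 1 member below that level. The members are described below by their values in each library and by the 95% intervals of their differences. In a bulk library, fewer cells of a kind and less RNA per cell cannot be told apart.

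**Figure D1:**
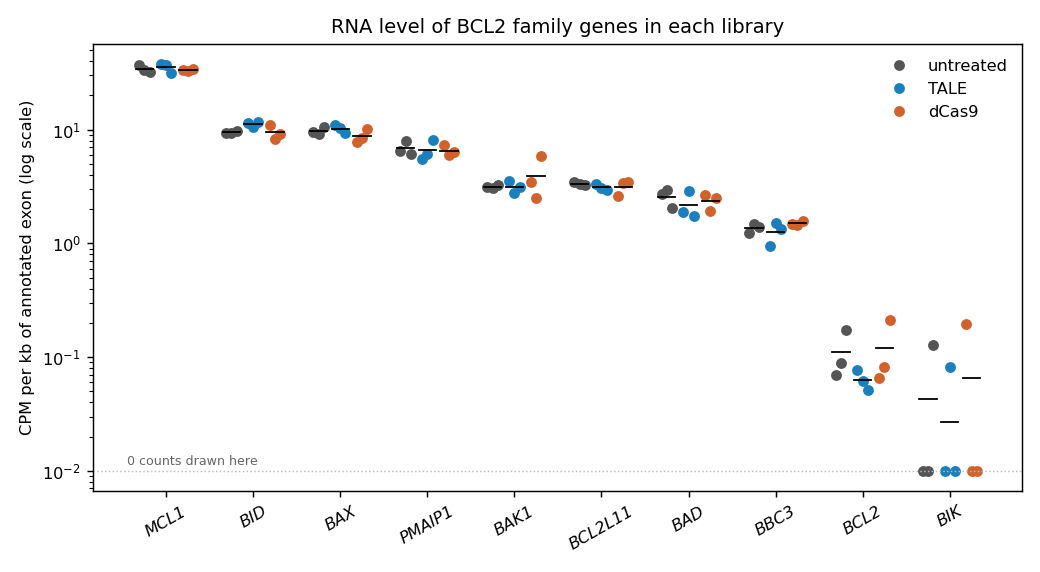
RNA level of each member in each library, as CPM per kilobase of annotated exon on a log axis, with 3 untreated, 3 TALE and 3 dCas9 libraries. Points are libraries and bars are group means. MCL1 lies above every other member in all 9 libraries, and BCL2 and BIK lie lowest.

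Scaled by exonic length, the members covered a wide range of RNA levels, with MCL1 highest and BCL2 and BIK lowest. MCL1, a short-lived prosurvival protein, led with a lowest, median and highest value over the 9 libraries of 31.7, 33.1 and 37.5 CPM per kb. That was above BID in 9 of 9 libraries, and its mean was higher than that of 94.3% of 17111 protein-coding genes. BID followed at 8.31, 9.64 and 11.6 CPM per kb and BAX at 7.70, 9.45 and 10.9. BID was above BAX in 5 of 9 libraries, so their order was not settled. PMAIP1 lay at 5.51, 6.30 and 8.09 CPM per kb, below BAX and above BAK1 in 9 of 9 libraries.

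Lower in the order, BAK1 at 2.53, 3.12 and 5.83 CPM per kb and BCL2L11 at 2.63, 3.32 and 3.47 could not be ranked either, since BAK1 was higher in 4 of 9 libraries. BAD, at 1.74, 2.50 and 2.97 CPM per kb, was below BCL2L11 in 8 of 9 libraries. BBC3, at 0.954, 1.46 and 1.56 CPM per kb, was below BAD in 9 of 9. A wide gap then separated BBC3 from BCL2, the gene that names the family. BCL2 stood at 0.0514, 0.0777 and 0.212 CPM per kb, with a mean 14.1-fold below that of BBC3. The RNA of MCL1 exceeded that of BCL2 by 159-fold to 616-fold per kb across libraries. These levels use the summed length of all annotated exons, which for a gene such as BCL2 includes long transcript ends.

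BIK, a BH3-only gene, was at the limit of detection. It had 0, 0 and 1 counts in the untreated libraries, 0, 1 and 0 in the TALE libraries and 2, 0 and 0 in the dCas9 libraries, 4 in all. At this depth a count of 0, seen in 6 libraries, allows up to 3 counts by counting error alone, a level of 0.262 to 0.371 CPM in those libraries. No fold change was computed for it.

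Of the prosurvival pair, MCL1 had the most even RNA of all members. It measured 232, 206 and 198 CPM in the untreated libraries, 233, 232 and 197 in the TALE libraries and 206, 202 and 210.2 in the dCas9 libraries. The 3 groups overlapped. The log2 fold change was 0.06 (SE 0.12) for TALE and -0.04 (SE 0.12) for dCas9 against untreated cells. The 95% intervals were 0.876 to 1.23 times and 0.818 to 1.15 times the untreated level. Between TALE and dCas9 cells the interval was 0.902 to 1.27 times. A change in MCL1 RNA of 1.5-fold therefore lay outside all 3 intervals.

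BCL2 RNA, encoding the founding prosurvival protein, rested on 7 to 27 counts a library. The untreated libraries held 10, 9 and 18 counts, or 0.873, 1.11 and 2.18 CPM. The TALE libraries held 10, 10 and 7 counts, or 0.980, 0.771 and 0.648 CPM, and the dCas9 libraries 9, 10 and 27 counts, or 0.834, 1.04 and 2.68 CPM. Untreated replicate 3 and dCas9 replicate 3 were high and the other 7 libraries lay close together. The log2 fold change was -0.76 (SE 0.52) for TALE against untreated cells, with edgeR's adjusted p = 0.802 and an interval of 0.276 to 1.27 times. Without untreated replicate 3 it was -0.29. It was 0.16 (SE 0.48) for dCas9 against untreated cells, and -0.54 without dCas9 replicate 3. BCL2 had the only intervals among the tested members that reached beyond a doubling or a halving.

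Both effectors were expressed in every library. BAX, which is mostly cytosolic until activated, measured 24.4, 23.8 and 27.0 CPM in the untreated libraries, 28.2, 26.7 and 23.9 in the TALE libraries and 19.9, 21.9 and 26.2 in the dCas9 libraries. The groups overlapped, with log2 fold changes of 0.07 (SE 0.13) for TALE and -0.15 (SE 0.14) for dCas9 against untreated cells. BAK1, which resides in the mitochondrial outer membrane, measured 6.89, 6.80 and 7.14 CPM in untreated, 7.74, 6.17 and 6.85 in TALE and 7.60, 5.59 and 12.9 in dCas9 libraries. A single library, dCas9 replicate 3, stood well above the other 8. With it, the log2 fold change of BAK1 for dCas9 against untreated cells was 0.33 (SE 0.25), and without it -0.069. The same library had the highest BCL2 level. The ratio of BAX to BAK1 per kb was 1.74 to 3.71 across libraries, with a median of 3.03 and its lowest value in dCas9 replicate 3.

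**Figure D2:**
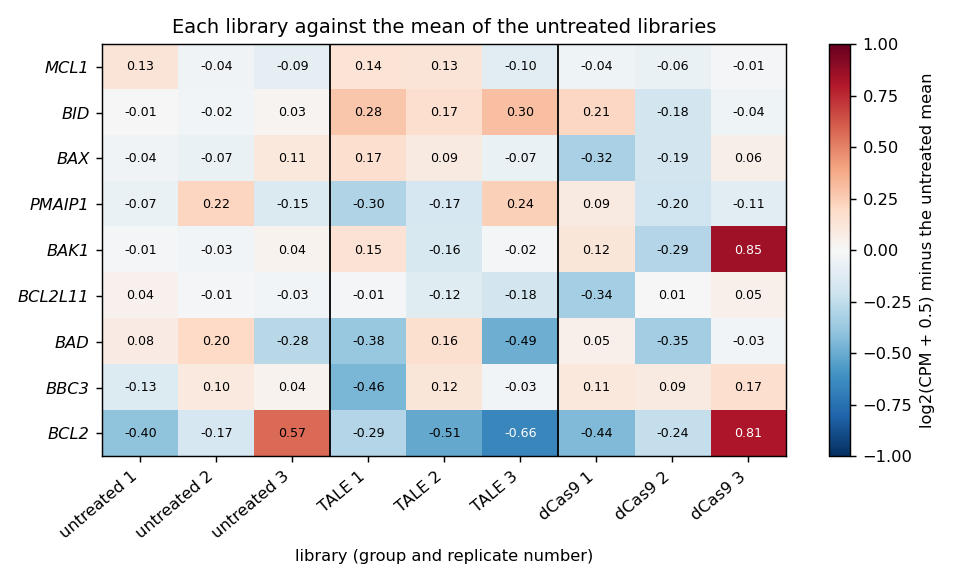
Difference of each library from the mean of the untreated libraries, in log2(CPM + 0.5), for the 9 tested members, with 3 libraries for each group. Red is higher and blue is lower. BAK1 at 0.85 and BCL2 at 0.81 in dCas9 replicate 3 are the largest values, and BID is above 0 in all 3 TALE libraries.

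Among the BH3-only genes, BID was the 1 member whose groups did not overlap. BID links death receptors to mitochondria, since caspase cleavage turns it into an activator of BAX and BAK1. It measured 41.5, 41.0 and 42.6 CPM in the untreated libraries and 50.7, 46.9 and 51.4 in the TALE libraries. All 3 TALE values were above all 3 untreated values, as was the case for 6.09% of genes tested, and in either direction for 12.5%. The log2 fold change was 0.25 (SE 0.12), and edgeR's adjusted p = 0.696. The exact two-sided permutation test gave p = 0.1, the smallest that 3 libraries against 3 can give, and the p of edgeR before adjustment was 0.0491.

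In the dCas9 libraries BID measured 48.3, 36.8 and 40.4 CPM, so that dCas9 replicate 1 lay inside the TALE range. The log2 fold change was 0.00 (SE 0.12) for dCas9 against untreated cells and 0.25 (SE 0.12) for TALE against dCas9 cells, with edgeR's adjusted p = 0.778 for the latter. Without dCas9 replicate 2 the latter was 0.16. TALE replicate 3 and dCas9 replicate 1, which stood apart by gene length, were among the libraries with high BID. TALE replicates 1 and 2, with a rho of 0.26 and 0.11, had high BID too. Without both TALE replicate 3 and dCas9 replicate 1, the log2 fold change was 0.22 for TALE against untreated cells and 0.34 for TALE against dCas9 cells. The adjusted p of the latter was then 0.197, the lowest of any member under any setting tried, in a range of 0.197 to 0.993 for that comparison.

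BCL2L11, better known as BIM, can bind all prosurvival members. Its RNA measured 23.2, 22.4 and 22.1 CPM in the untreated libraries, 22.4, 20.7 and 19.8 in the TALE libraries and 17.7, 22.7 and 23.4 in the dCas9 libraries. The groups overlapped, and dCas9 replicate 1 was the lowest library. PMAIP1, also called NOXA and known for binding MCL1, measured 14.2, 17.4 and 13.4 CPM in untreated, 12.1, 13.3 and 17.7 in TALE and 15.9, 12.9 and 13.8 in dCas9 libraries. Its groups overlapped as well, with TALE replicate 1 lowest and TALE replicate 3 highest.

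BBC3, also called PUMA and a classical target of p53, was low and even. It measured 3.93, 4.70 and 4.48 CPM in the untreated libraries, 3.04, 4.78 and 4.26 in the TALE libraries and 4.73, 4.66 and 4.96 in the dCas9 libraries. TALE replicate 1 was the lowest, and the groups overlapped. BAD, which is held inactive by phosphorylation while growth factors are present, measured 4.63, 5.07 and 3.51 CPM in untreated, 3.23, 4.93 and 2.96 in TALE and 4.54, 3.31 and 4.26 in dCas9 libraries. The ranges of its 3 groups overlapped.

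For these 4 genes the log2 fold changes lay near 0. Against untreated cells they were -0.11 (SE 0.14) in TALE and -0.09 (SE 0.14) in dCas9 cells for BCL2L11. For PMAIP1 they were -0.07 (SE 0.17) and -0.07 (SE 0.17). Each of these was smaller than its standard error. BBC3 gave -0.10 (SE 0.23) and 0.14 (SE 0.23), and BAD gave -0.23 (SE 0.26) and -0.12 (SE 0.26). The 95% intervals for BAD, the widest of the 4, were 0.581 to 1.25 times and 0.626 to 1.35 times the untreated level.

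**Figure D3:**
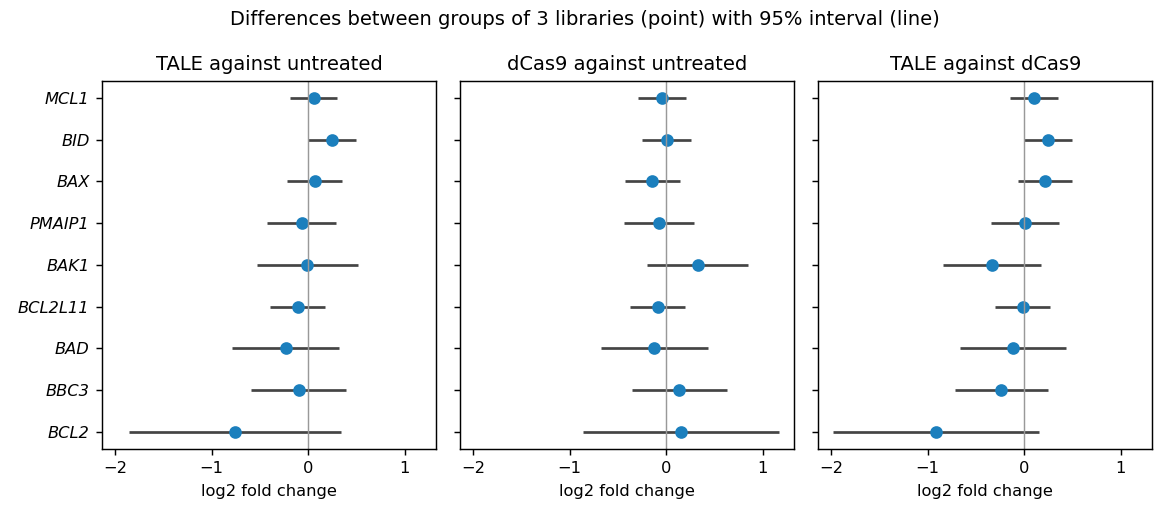
Log2 fold change of each tested member with its 95% interval, for 3 comparisons of 3 libraries with 3. Points are edgeR estimates. Only the interval of BID between TALE and untreated cells leaves out 0, and only narrowly. The interval of BCL2 is the widest in each panel.

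Over the 9 tested members, 3 fold changes were above 0 and 6 below for TALE against untreated cells, with a median log2 fold change of -0.07 against 0.00 over all genes. For dCas9 against untreated cells 4 were above and 5 below, with a median of -0.04 against 0.00. For TALE against dCas9 cells 4 were above and 5 below, with a median of -0.02 against 0.00. In each comparison 8 of 9 intervals stayed within a doubling and a halving, so for all tested members other than BCL2 a change of 2-fold lay outside the interval. The groups did not overlap for 1, 0 and 0 members in these comparisons, against 12.5%, 11.6% and 9.38% of all genes tested.

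The spread of the members over the 9 libraries also differed. The SD of log2(CPM + 0.5) was 0.50 for BCL2 and 0.32 for BAK1, higher than for 81.0% and 80.3% of genes within 1.5-fold of their levels. It was 0.10 for MCL1, 0.13 for BCL2L11 and 0.19 for BBC3, higher than for 15.1%, 15.9% and 10.1% of such genes. The high rank of BCL2 and BAK1 rested on dCas9 replicate 3. Without that library, a choice made after seeing the data, the SD was 0.37 for BCL2 and 0.14 for BAK1, higher than for 43.5% and 7.37% of such genes. It was then 0.11 for MCL1, 0.13 for BCL2L11 and 0.20 for BBC3, higher than for 23.6%, 18.8% and 13.8%. The library left out was the highest for both BCL2 and BAK1. A fall in their SD and rank was therefore built into that choice, and the lower ranks do not show that either gene was even.

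Around these members, 54 further genes of apoptosis were listed by role, of which 46 were tested and 0 were called in any comparison. Against untreated cells, 4 of all 55 tested genes, members included, did not overlap for TALE and 6 for dCas9, where 12.5% and 11.6% of all genes did so. BCL2L1, which encodes the prosurvival protein BCL-XL, was the most abundant of the other prosurvival relatives at 159.6 to 186 CPM. Its log2 fold change was -0.06 (SE 0.11) for TALE and -0.01 (SE 0.11) for dCas9 against untreated cells. Per kb, MCL1 RNA was 0.763 to 0.978 times that of BCL2L1, and lower in 9 of 9 libraries. In CPM, without scaling by exonic length, the order reversed, with MCL1 at 197 to 233 and BCL2L1 at 159.6 to 186. The order of these genes thus depended on the annotated length. K562 RNA therefore held MCL1 and BCL2L1 at similar levels and BCL2 far below both.

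The other lists each had a leading gene. BNIP3L, a mitophagy receptor with a BH3-like region, ranged from 138 to 267 CPM, with its lowest value in TALE replicate 1. CYCS, which encodes cytochrome c, ranged from 474 to 760.2 CPM, and VDAC1, a channel of the mitochondrial outer membrane, from 325 to 417 CPM. RIPK1, a kinase downstream of death receptors, ranged from 64.0 to 79.1 CPM. ATF4, a transcription factor of the integrated stress response, ranged from 231 to 325 CPM. BIRC6 and HUWE1 encode very large ubiquitin ligases, and HUWE1 is known to mark MCL1 for degradation. They ranged from 129 to 236 and 266 to 539.9 CPM, and for both the lowest 2 values were in TALE replicate 3 and dCas9 replicate 1, the libraries with the most negative correlation with exonic length.

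Of the 46 listed genes, 5 had an unadjusted edgeR p under 0.05 in some comparison. The share of all genes with such a p in at least 1 comparison was not computed. In the 4 comparisons, ordered as above, 2, 2, 3 and 2 of the 55 tested genes, members included, had one. The shares of all genes were 7.15%, 5.93%, 6.38% and 6.35%. BIRC2, an inhibitor of apoptosis that acts as a ubiquitin ligase, measured 71.1, 66.9 and 76.7 CPM in the untreated libraries, 54.7, 58.2 and 67.6 in the TALE libraries and 66.1, 58.2 and 54.4 in the dCas9 libraries. Its log2 fold change was -0.26 (SE 0.10) for the mean of both silenced groups, with an adjusted p = 0.659. All 3 dCas9 values were below all untreated values, while TALE replicate 3 was not. TP73, a relative of p53, measured 2.97, 3.71 and 3.87 CPM in untreated, 5.00, 4.32 and 4.08 in TALE and 5.37, 5.07 and 5.16 in dCas9 libraries. All 6 silenced libraries were above the 3 untreated ones, as was true of 1.53% of genes and in either direction of 3.54%, and the log2 fold change was 0.47 (SE 0.20, adjusted p = 0.718).

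CASP6, an executioner caspase, BTRC, a ubiquitin ligase subunit, and TNFRSF1A, a receptor for tumour necrosis factor, completed the 5. For TALE against dCas9 cells their log2 fold changes were 0.27 (SE 0.12), 0.33 (SE 0.16) and 0.33 (SE 0.15), with adjusted p = 0.770, 0.778 and 0.770 from edgeR. Without dCas9 replicate 2 that of CASP6 was 0.17 and that of TNFRSF1A 0.16, and without TALE replicate 2 that of BTRC was 0.21. None of the 5 was called. For the mean of both silenced groups against untreated cells, the median log2 fold change was -0.03 over the 55 tested genes, members included, against 0.00 over all genes. By list it ran from -0.14 for the 6 tested genes of other BCL2 family and BH3-only genes to 0.07 for the 4 of mitochondrial outer membrane partners.

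**Figure D4:**
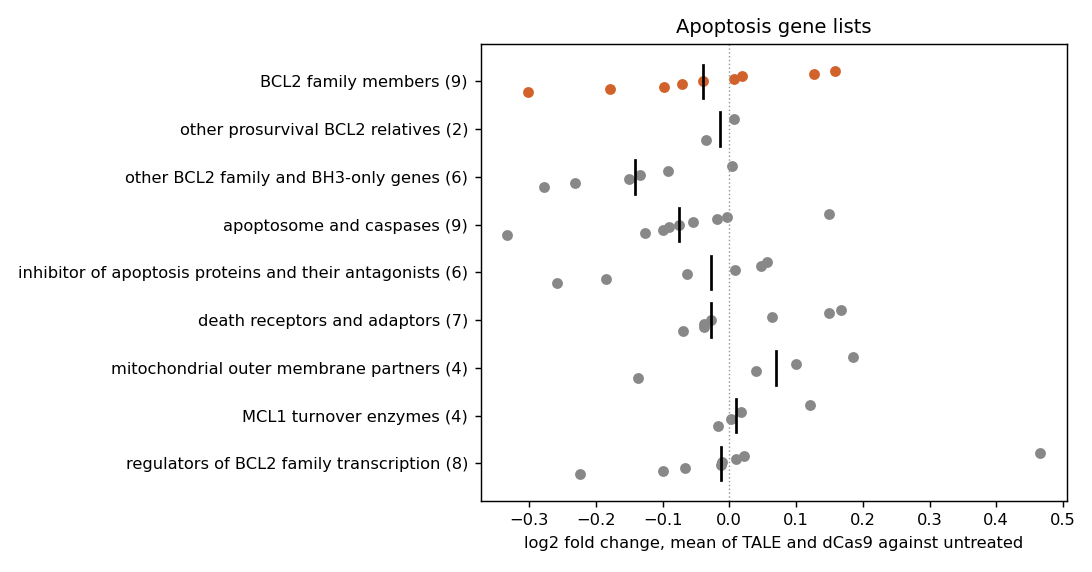
Log2 fold change of the mean of both silenced groups against untreated cells, for the tested genes of each list, with the number of genes in brackets. Each point is a gene, bars are list medians and members are orange. TP73 at 0.47 is the highest point and no point was called.

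The same genes were then read in the MeDIP data. The deposited table holds 198884 regions, each under a peak of at least 1 library, so DNA without a peak is not in it. A gene was taken as its GENCODE span on GRCh37 plus 2 kb upstream. In these windows lay 62 regions, of which 42 had enough counts to be tested, and 43 were intronic, 12 touched an exon and 7 were upstream. All 10 members had at least 1 region, as did 77.2% of 20149 protein-coding genes. A region within 2 kb of the gene start was found for 9 of 10 members and for 43.6% of coding genes. The median was 2.57 regions per 10 kb of window, against 1.53 over coding genes. The length and base composition of the members were not compared with those of other genes, and any part of these in the counts was not tested.

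BID (chr22:18216904-18257536, minus strand) carried the most MeDIP counts, with 14 regions, all tested, that summed to 285 CPM. Of these, 7 had a peak in all 9 libraries, and the strongest, chr22:18240159-18242123 in an intron, held 69.4 CPM. BCL2 (chr18:60790579-60987361, minus strand) had 9 regions in a window of 198783 bases that summed to 20.4 CPM. BAD (chr11:64037302-64052176, minus strand) had a single strong intronic region of 2711 bases with 53.4 CPM. PMAIP1 (chr18:57567228-57571537, plus strand) had the least, 2 regions with 1.64 CPM together and none with enough counts to be tested. Per kb of window, BAK1 held the most at 8.46 CPM and BID followed at 6.68, while PMAIP1 at 0.260 and BCL2 at 0.103 held the least. These sums were not corrected for DNA copy number or by an input library, so they do not rank the members by methylation.

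The gene starts themselves were nearly free of regions. Among coding genes, 3.47% had a region in the 300 bases around the annotated start. Of the 10 members, only BCL2L11 (chr2:111876955-111926021, plus strand) had one, and it covered the outermost annotated start. This region, chr2:111874864-111877194, spans 2331 bases with 175 CpG sites, or 7.51 per 100 bases, and had a peak in all 9 libraries. It held 25.2, 22.9 and 23.4 CPM in the untreated libraries, 29.1, 21.2 and 23.3 in the TALE libraries and 26.9, 23.6 and 22.5 in the dCas9 libraries. The groups overlapped, and both silenced groups together differed from untreated cells by 0.03 in log2 (SE 0.17). The region ended 1047 bases before the RefSeq promoter of BCL2L11. It ended 1297 bases before the start of the canonical BCL2L11 transcript in GENCODE, chr2:111878491, and so did not cover that start.

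RefSeq promoters of GRCh38.p14, which run from 250 bases before to 50 after a start, were found for 8 members, 13 promoters in all. All 13 were located by their sequence in GRCh37, and 0 overlapped a MeDIP region. Their CpG counts ranged from 5 to 42, where the median of 35116 promoters was 14. The 2 ends of that range are printed, as the 250 bases before the start with CpG sites in capitals, 5′ to 3′ on the strand of the gene. PMAIP1 is at chr18:59899746-59899995 (plus strand) and BBC3 at chr19:47232668-47232917 (minus strand), both GRCh38.p14.
PMAIP1 promoter: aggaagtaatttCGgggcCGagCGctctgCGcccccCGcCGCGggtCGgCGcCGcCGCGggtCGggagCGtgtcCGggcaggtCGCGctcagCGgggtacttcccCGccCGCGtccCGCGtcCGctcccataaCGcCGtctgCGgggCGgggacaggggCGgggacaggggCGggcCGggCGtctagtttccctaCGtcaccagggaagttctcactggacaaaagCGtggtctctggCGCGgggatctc
BBC3 promoter: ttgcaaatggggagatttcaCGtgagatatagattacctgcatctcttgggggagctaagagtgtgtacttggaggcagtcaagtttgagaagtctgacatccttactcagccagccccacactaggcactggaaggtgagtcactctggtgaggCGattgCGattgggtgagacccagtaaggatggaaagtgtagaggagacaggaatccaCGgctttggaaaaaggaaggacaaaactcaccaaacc
The PMAIP1 stretch holds 36 CpG sites and the BBC3 stretch 4. The BBC3 promoter lies at chr19:47735875-47736174 on GRCh37. The start of the canonical BBC3 transcript in GENCODE, chr19:47734456, lies downstream of it, so these letters do not describe that start.

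Short motifs were counted on both strands of these promoters. Shares of all promoters below count single promoters, while a member is named if any of its promoters had a match. BAD and BID had more than 1 promoter. The GC box GGGCGG occurred in promoters of BCL2L11, BAK1, BAD, PMAIP1, BAX and BID, though not in every BID promoter, and in 45% of all promoters. The CCAAT box occurred in promoters of BCL2L11, BAK1, BAD, BBC3 and BAX, and in 34.6% of all. The TATA box TATAAA was in none of the 13 and in 11.5% of all. A p53 half-site was found in the BAK1 promoter alone, and in 6.63% of all. Such matches are descriptions of the letters in these windows.

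Of the 42 tested regions, 0 were called in any comparison, where the same threshold called 0%, 0.000947%, 0.000947% and 0% of 105652 regions. The 4 comparisons follow the order used for RNA above. At an unadjusted edgeR p under 0.05 the members held 2, 2, 1 and 3 regions, where 4.74%, 4.69%, 4.47% and 4.88% of all regions passed. The groups did not overlap for 3, 4, 4 and 0 of the 42, against 10.2%, 10.3%, 9.97% and 2.45% of all. These shares were near the background. The 4 regions with such a p lay in BAK1, BBC3 and BIK, and 3 of them were intronic.

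The intronic BAK1 region lies 974 bases inside the gene (chr6:33540324-33548070, minus strand). It had 10, 8 and 21 counts in the untreated libraries, 21, 13 and 30 in the TALE libraries and 22, 29 and 14 in the dCas9 libraries, or 3.07, 3.40 and 6.54, 9.70, 5.10 and 8.24 and 8.69, 7.53 and 6.04 CPM. Untreated replicates 1 and 2 were the lowest 2 libraries, and untreated replicate 3 lay inside the range of both silenced groups. The log2 fold change was 0.78 (SE 0.33) for both silenced groups against untreated cells, with p = 0.0226 in edgeR before adjustment, 1.000 after it and 0.0357 in the exact permutation test. Without untreated replicate 3 the log2 fold change was 1.22. Peaks were called there in 5 libraries, 1 untreated, 2 TALE and 2 dCas9. BAK1 RNA in the same groups is given above, and its level overlapped between them.

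A second BAK1 region, upstream of the gene at chr6:33549786-33550918, carried 40.5 CPM and a peak in all 9 libraries. It held 37.2, 42.4 and 41.7 CPM in untreated, 34.2, 31.4 and 39.6 in TALE and 45.8, 48.0 and 44.5 in dCas9 libraries. All 3 dCas9 values were above the others. TALE against dCas9 cells gave a log2 fold change of -0.39 (SE 0.15), an unadjusted edgeR p = 0.0136 and an exact permutation p = 0.1.

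The intronic BBC3 region, in a gene at chr19:47724079-47736023 on the minus strand, went the other way. It held 12.0, 16.6 and 10.9 CPM in untreated, 8.78, 6.67 and 12.6 in TALE and 9.09, 7.27 and 6.91 in dCas9 libraries. All 3 dCas9 values were below the untreated ones, and TALE replicate 3 was not. For both silenced groups the log2 fold change was -0.59 (SE 0.25), with p = 0.0223 in edgeR before adjustment and 0.0476 in the exact permutation test. The intronic BIK region, in a gene at chr22:43506756-43525718 on the plus strand, rested on 3 to 31 counts. It had 21, 3 and 31 counts in untreated, 3, 10 and 8 in TALE and 13, 9 and 10 in dCas9 libraries. Untreated replicates 1 and 3 were high and untreated replicate 2 was among the lowest, so the untreated libraries spanned the whole range of the silenced ones. The log2 fold change was -0.95 (SE 0.41), with p = 0.0249 in edgeR before adjustment and 0.440 in the exact permutation test. Without untreated replicate 3 the log2 fold change was -0.38.

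Summed over whole windows, 2 of 10 members did not overlap between the 6 silenced and 3 untreated libraries, and both were lower in the silenced ones. Among 15554 coding genes with a region, 3.04% did not overlap and 1.7% were lower. BCL2 summed to 20.6, 23.8 and 24.6 CPM in untreated, 18.0, 18.8 and 20.1 in TALE and 19.8, 19.0 and 19.0 in dCas9 libraries, a mean log2 difference of -0.26. BBC3 summed to 36.2, 42.0 and 42.4, 29.1, 33.8 and 34.1 and 32.0, 31.7 and 29.8 CPM, a mean log2 difference of -0.34. Each gave an exact two-sided permutation p = 0.0119, the smallest that 6 libraries against 3 can give, not adjusted for the number of sums compared. The same 3 untreated libraries enter both differences. For each of the 2 genes, TALE and dCas9 against untreated cells both gave an exact p = 0.1, the groups not overlapping for 11% and 11.4% of coding genes. The sums rested on 39 to 79 counts a library for BCL2 and 63 to 136 for BBC3. The other 8 members overlapped between silenced and untreated cells. In RNA, BCL2 and BBC3 overlapped between all groups. The BBC3 sum includes the intronic region described above. Summed only within 2 kb of the gene start, silenced and untreated libraries overlapped for both genes. There the log2 difference was -0.04 for BCL2 and -0.24 for BBC3, with exact permutation p = 0.726 and 0.190.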

How the data were processed

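The authors deposited unnormalised counts, per gene symbol for RNA and per region for MeDIP. Per the submitters' processing notes, RNA reads were aligned with STAR 2.3.0 and MeDIP reads with BWA 0.7.5 to hg19, and Picard, MACS2 and bedtools were also used. The counter, the use of strand and all settings are not given in the sources used here, so reads shared by overlapping genes or antisense partners cannot be told apart. Per the labels, RNA was amplified with a system made for fixed tissue. The deposited peak lists, made per library, give the authors' score, fold enrichment ratio and −log10 p for each peak. Here they served only to count libraries with a peak.

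Counts were tested with edgeR 4.0.16 (quasi-likelihood test, TMM factors, 1 model of group means over 9 libraries) in R 4.3.3. The filterByExpr rule at a minimum of 10 left 13786 genes and 105652 regions. Adjusted p-values are Benjamini-Hochberg over all features tested, with a threshold of 0.05. CPM values use TMM-scaled totals, and single values were compared by exact two-sided permutation of log2(CPM + 0.5). Standard errors came from the test statistic. Intervals of 95% are edgeR's estimate with 17.63 degrees of freedom and cover the spread between libraries. The code was tested on simulated data. Gene spans and exonic lengths came from GENCODE on GRCh37, and promoters from RefSeq on GRCh38.p14. The MCL1 span there is 18844 bases and includes long transcripts. MCL1 and BIK promoters were not used here. The text names all members, listed genes with an unadjusted p under 0.05, the most abundant gene of each list, and member regions with such a p or over a gene start. Genes most like MCL1 are not reported here. The members and lists were chosen with earlier results of these data known. Alternatives were other scalings, filters, tests (limma 3.58.1, DESeq2 1.42.0), a replicate block, windows and leaving out libraries.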

Additional observations from a re-analysis of the deposited data

How the results depend on the processing

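No member was called under the 19 other RNA settings run (18 for both silenced groups), no other listed apoptosis gene under 18 (17 for both silenced groups) and no member region under 13. Of 671 recomputed member fold changes, 5 changed sign by more than their standard error. Leaving out each library in turn, BAK1 ran from -0.069 (without dCas9 replicate 3) to 0.56 for dCas9 against untreated cells and from -0.56 to 0.057 (without dCas9 replicate 3) for TALE against dCas9. BCL2 ran from -0.54 (without dCas9 replicate 3) to 0.62 for dCas9 against untreated cells and from -0.65 to 0.16 (without untreated replicate 3) for both silenced groups. PMAIP1 ran from -0.17 (without TALE replicate 3) to 0.12 for TALE against dCas9. For TALE against untreated cells and against dCas9 cells, BIRC6 ran from -0.17 to 0.25 and from -0.14 to 0.29 (lowest without TALE replicate 1), and HUWE1 from -0.29 to 0.18 and from -0.35 to 0.12 (highest without TALE replicate 3). CYCS ran from -0.16 to 0.11 for dCas9 against untreated cells and from -0.096 to 0.18 for TALE against dCas9, turning without dCas9 replicate 3. The intronic BBC3 region ran from -0.0088 (without TALE replicate 3) to 0.50 for TALE against dCas9. The causes were not tested.

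Counts of genes called over the whole RNA table moved more, given here for TALE against untreated, dCas9 against untreated, TALE against dCas9 and both silenced groups against untreated. Without a filter they were 74, 89, 77 and 79. With at least 10 counts in every library, fewer genes were tested and 1, 2 and 3 were called, leaving out TALE against dCas9, which stayed at 0. DESeq2 called 9, 29 and 36, with the same omission. Fitting only the groups compared gave 8 for dCas9. Leaving out 1 library gave 2 to 16, 2 to 10, 0 to 21 and 2 to 33. Without both TALE replicate 3 and dCas9 replicate 1, a choice made after seeing the data, they were 109, 109, 123 and 128. For MeDIP, a minimum of 10 counts in all gave 0 for TALE against dCas9 and 1 for both silenced groups, and DESeq2 gave 0 for dCas9 against untreated and for TALE against dCas9. Leaving out 1 library gave 0 to 2, 0 to 3, 0 to 1 and 0 to 2.

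Correlations between the deviations of libraries with the same replicate number were -0.28 to 0.10 for RNA and -0.005 to 0.004 for MeDIP. With 3 libraries per group these values cannot show whether the samples were paired. With the number as a replicate block, 2 RNA genes and 0 MeDIP regions were called for dCas9 against untreated cells. A window of 5 kb moved the summed MeDIP level at 8 of 10 gene starts by more than 1 SD of the 9 libraries, and BAD by less, from 53.4 to 59.8 CPM. Asking for most of a region inside the window moved BAK1 to 6.48 CPM and BAD to 0, and BBC3 by less than 1 SD, from 18.6 to 15.7 CPM. Depth limited BCL2 (7 to 27 counts), BIK (0 to 2) and 20 regions that could not be tested.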

Other observations

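Some genes that usually mark other tissues had RNA in these K562 libraries. EPCAM ranged from 85.0 to 118 CPM and KRT19 from 40.7 to 72.2 CPM in the 9 libraries, while the epithelial genes CDH1 and KRT5 stood at 0 in 5 and 6 libraries. CD3D, a T cell receptor subunit, ranged from 14.8 to 29.6 CPM, while CD2 and CD5 stood at 0 in 8 and 7 libraries. The summed level of the 4 epithelial markers was 140 to 169 CPM in untreated, 160 to 184 in TALE and 147 to 174 in dCas9 libraries.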
